A study of Mus musculus with 12 samples.

Results

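Hk1 and Pdk2, a pair of genes that act at 2 control points of glucose use, were followed through 4 groups of mouse trigeminal ganglia. They are 2 of the 9915 genes that could be named by position in these data, of which 4769 were expressed enough to be tested. The pair was chosen for how it differed between the groups, so its levels and differences are a description and carry no test. The trigeminal ganglion holds the cell bodies of the sensory neurons of the face and the cornea, together with satellite glia, Schwann cells and connective tissue.

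Bulk RNA sequencing covered 12 libraries, 3 in each group, and the mice were 8-week-old C57BL/6J females. In the first group a 1.5 mm wound had been cut into the corneal epithelium and upper stroma of a randomly chosen eye (keratectomy), and the skin over the orbit was then stimulated electrically, called injury with stimulation. The second group had the keratectomy and no stimulation, and was taken after 2 weeks. The third had stimulation without a wound, and the fourth was untreated and serves as control. The current was biphasic, 300 µA at 20 Hz, and ran for 4 min on each of 14 days. Isoflurane went with stimulation, and ketamine, xylazine and a painkiller went with the wound, so the effects of these drugs and of the treatments cannot be told apart. No library is labelled as a sham stimulation. Neither the number of mice behind a library nor the side of the ganglion is labelled, so errors measure the spread between these libraries, which may be technical.

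Hexokinase traps glucose in the cell by phosphorylating it, and Hk1 encodes the isoform that predominates in brain and nerve, where it sits mostly on the outer membrane of mitochondria. Pyruvate, the end product of glycolysis, enters the mitochondrial citric acid cycle through the pyruvate dehydrogenase complex. Pdk2 encodes a kinase that switches this complex off by phosphorylation, and the phosphatase encoded by Pdp1 switches it on again. Hk1 and Pdk2 therefore stand at the entry to glycolysis and at the gate from glycolysis to the mitochondria.

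Counted reads per library ranged from 7952798 to 10751547. Between 98.9% and 99.4% of them lay in intervals over exons of the GRCm38 genome build, although the counting intervals carry GRCm39 coordinates. Genes were therefore named by where an interval lies on GRCm38, and each is measured only through the exon bases under its interval. Replicate 2 of injury with stimulation stood apart from the other libraries of its group, with a chi-square per degree of freedom of 71 and 47.8 against them, while the other within-group pairs gave 8.26 to 32.7. Differences of Hk1 and Pdk2 that rest on that group are given with and without it. No 2 libraries of a group differed as little as sampling noise.

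Hk1 (GENCODE M21, GRCm38 chromosome 10, 62268855 to 62379908, minus strand) was read through the interval with Geneid ENSMUSG00000097129. That interval covers 1 coding exon of 305 bp, chr10:62286348-62286652, out of 3187 coding bases. A second interval, deposited under the symbol Vps26a, covers coding pieces of 69 and 156 bp of Hk1 and of no other gene. The interval deposited as Hk1 itself lies over exons of Tspan15, Neurog3, Fam241b and Mir7662 and was not used for Hk1.

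Pdk2 (GRCm38 chromosome 11, 95026258 to 95041354, minus strand) was read through the interval with Geneid ENSMUSG00000119939, which has no symbol in the deposited table. It covers 475 exon bp of the 3' part of the gene, of which 231 are coding and 244 are noncoding. A second interval, deposited as Dlx4, covers 185 coding bp of Pdk2 further upstream, chr11:95031836-95032020, but also 47 bp of the predicted gene Gm11513. The interval deposited as Pdk2 lies over Gm22456 and averaged 0.833 counts per library. Reads were counted without regard to strand, so reads from the opposite strand are included.

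**Figure D1:**
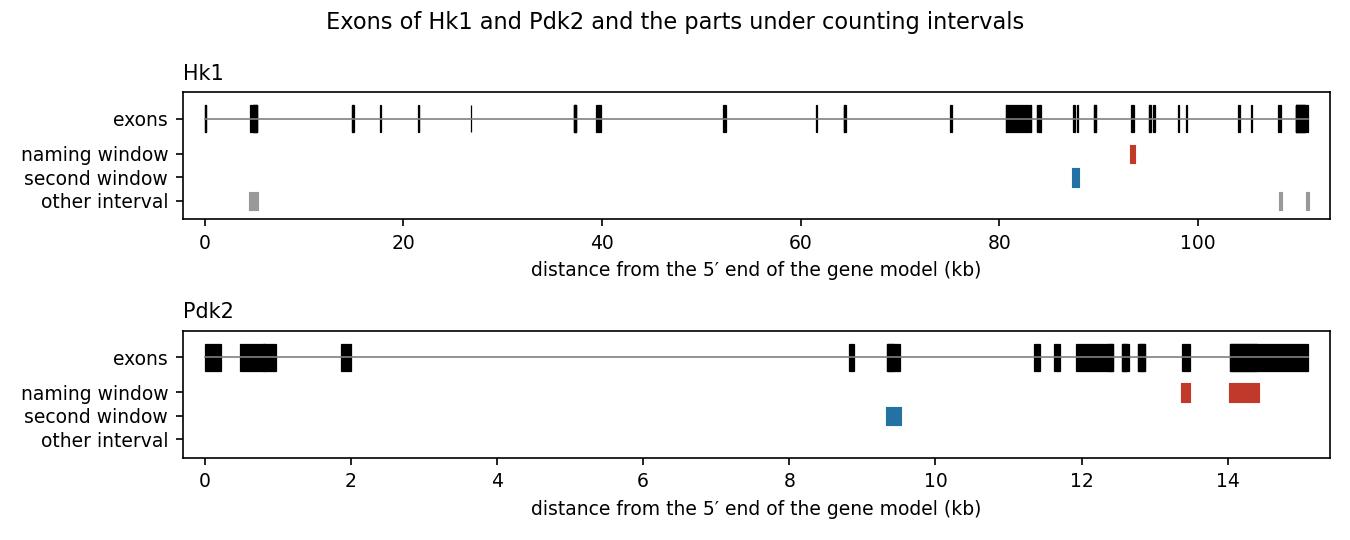
Exons of Hk1 and Pdk2 in all GENCODE M21 transcripts (black) against distance from the 5′ end of the gene model in kb, with the exon parts under the interval that names the gene (red), under the second interval (blue) and under intervals that also lie over other genes (grey). Both Hk1 intervals lie nearer the 3′ end than the 5′ end of the gene model, and the Pdk2 naming interval lies at its 3′ end.

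The counted bases of each gene differ from its closest relative in many places, and the stretches below show where. Over the 305 bp naming window, Hk1 shares 65.2% of its bases with Hk2, 63.6% with Hkdc1 and 50.8% with Hk3, and the longest run of identical bases is 17 bp, with Hkdc1. In the coding pieces of the Pdk2 naming window, Pdk1 shares 68.8% and 77.4% of the bases, with a longest identical run of 19 bp. The 90 bases most alike in each pair are printed 5′ to 3′ on the coding strand, from GENCODE M21 transcripts on GRCm38, with capitals at every base that differs from the partner below or above. Hk1 is at chr10:62286514-62286603 and Pdk2 at chr11:95027889-95027978.
Hk1: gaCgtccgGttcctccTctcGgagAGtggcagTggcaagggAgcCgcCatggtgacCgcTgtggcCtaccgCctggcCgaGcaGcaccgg
Hk2: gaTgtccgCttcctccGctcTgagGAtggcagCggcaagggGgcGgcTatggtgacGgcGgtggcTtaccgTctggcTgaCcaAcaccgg
Pdk2: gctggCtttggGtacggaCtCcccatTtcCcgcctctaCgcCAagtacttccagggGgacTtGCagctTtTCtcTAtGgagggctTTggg
Pdk1: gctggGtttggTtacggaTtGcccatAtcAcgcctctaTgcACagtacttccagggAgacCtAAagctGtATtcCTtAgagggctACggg
Hk1 and Hk2 are identical at 73 of these 90 bases (81.1%), and Pdk2 and Pdk1 at 69 of 90 (76.7%). Reads were 150 bp long, so a read that covers such a stretch spans all of its capitals. How the aligner placed reads between relatives was not tested.

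Hk1 was higher in every treated library than in every control library, and it was highest with stimulation alone. In counts per 1000000 (CPM, scaled by edgeR's TMM factors) its naming window had 136, 104 and 137 after injury with stimulation, and 109, 116 and 118 after injury. It had 193, 189 and 194 with stimulation alone, against 76.7, 83.7 and 66.2 in controls. The stimulation-alone libraries lay close together and above all 9 others. The means were 126 ± 18.5 CPM after injury with stimulation, 114 ± 4.76 after injury, 192 ± 2.4 with stimulation alone and 75.5 ± 8.83 in controls (SD, n = 3 each). The order of the means was thus stimulation alone, injury with stimulation, injury and control, and the injury groups overlap, since replicate 2 of injury with stimulation was below all 3 injury libraries.

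Pdk2 was also higher in every treated library than in every control library, but injury alone was the highest group. How many of all intervals separate from the controls, or between treated groups, as Hk1 and Pdk2 do was not counted. The naming window of Pdk2 had 133, 74.9 and 96.2 CPM after injury with stimulation, and 157, 163 and 158 CPM after injury. It had 133, 169 and 109 CPM with stimulation alone, against 51.9, 51.9 and 43.3 CPM in controls. The means were 101 ± 29.2 CPM after injury with stimulation, 159 ± 2.87 after injury, 137 ± 30.6 with stimulation alone and 49 ± 4.93 in controls (SD, n = 3 each). Both stimulated groups were spread more widely than the injury and control groups. All 3 libraries of injury with stimulation were below all 3 injury libraries. Stimulation alone overlapped with both injury groups, so only the control stands clear of its neighbour in the order injury, stimulation alone, injury with stimulation and control.

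**Figure D2:**
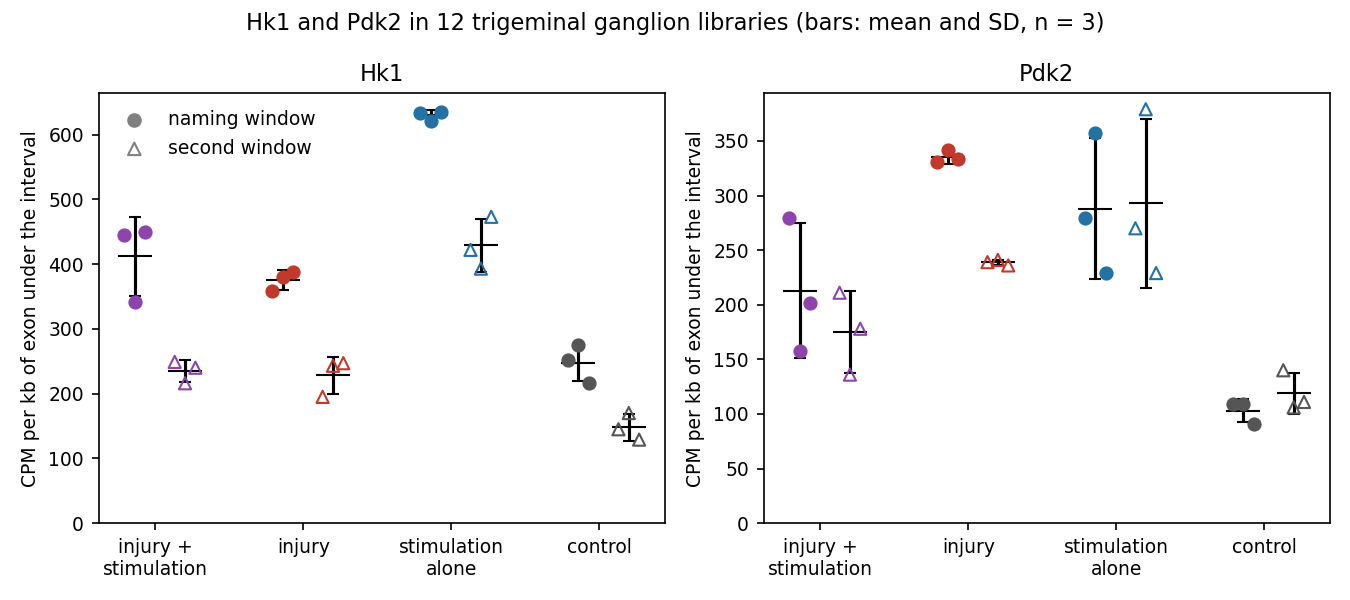
Level of Hk1 and Pdk2 in each of the 12 libraries, in CPM per kb of exon under the interval, for the naming window (filled circles) and the second window (open triangles), with the mean and SD of 3 libraries per group. Hk1 is highest with stimulation alone in both windows, while Pdk2 is highest after injury in the naming window and with stimulation alone in the second.

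The second windows gave the same place to the controls and a different order for Pdk2. Hk1 there averaged 52.9 ± 3.88 CPM after injury with stimulation, 51.3 ± 6.52 after injury, 96.6 ± 9.2 with stimulation alone and 33.3 ± 4.63 in controls. Pdk2 averaged 32.4 ± 6.94 CPM after injury with stimulation, 44.2 ± 0.441 after injury, 54.2 ± 14.3 with stimulation alone and 22 ± 3.44 in controls (SD, n = 3 each). The place of Pdk2 after injury relative to stimulation alone therefore depends on which of its exons is read. Across the 12 libraries the windows of a gene correlated with a Pearson r of 0.979 for Hk1 and 0.924 for Pdk2 on log2(CPM + 0.5), and these points share their libraries and depth.

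Per kb of exon, the ratio of the second to the naming window of Hk1 lay between 0.534 and 0.745 in all 12 libraries. For Pdk2 the same ratio averaged 0.833 ± 0.0678 after injury with stimulation, 0.712 ± 0.00945 after injury, 1.01 ± 0.0471 with stimulation alone and 1.15 ± 0.164 in controls (SD, n = 3 each). Injury libraries, at 0.705 to 0.723, thus had the most reads at the 3′ end of Pdk2 relative to its upstream coding window, and they did not overlap with any other group. The upstream window also takes reads of Gm11513, and the share of these was not tested.

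The level of Hk1 relative to Pdk2 differed between groups in the naming windows. Hk1 over Pdk2, each in CPM per kb, was 1.59, 2.17 and 2.22 after injury with stimulation, and 1.08, 1.11 and 1.16 after injury. It was 2.27, 1.74 and 2.78 with stimulation alone, against 2.3, 2.51 and 2.38 in controls. After injury the genes were near equal per kb, with a mean ratio of 1.12 ± 0.0404, while stimulation alone (2.26 ± 0.52) spans the control values (2.4 ± 0.106). The second windows did not keep this gap. There Hk1 and Pdk2 averaged 228 and 239 CPM per kb after injury and 148 and 119 in controls. Control replicate 1 had 145 and 140, near equal as in injury replicate 3 (247 and 236).

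**Figure D3:**
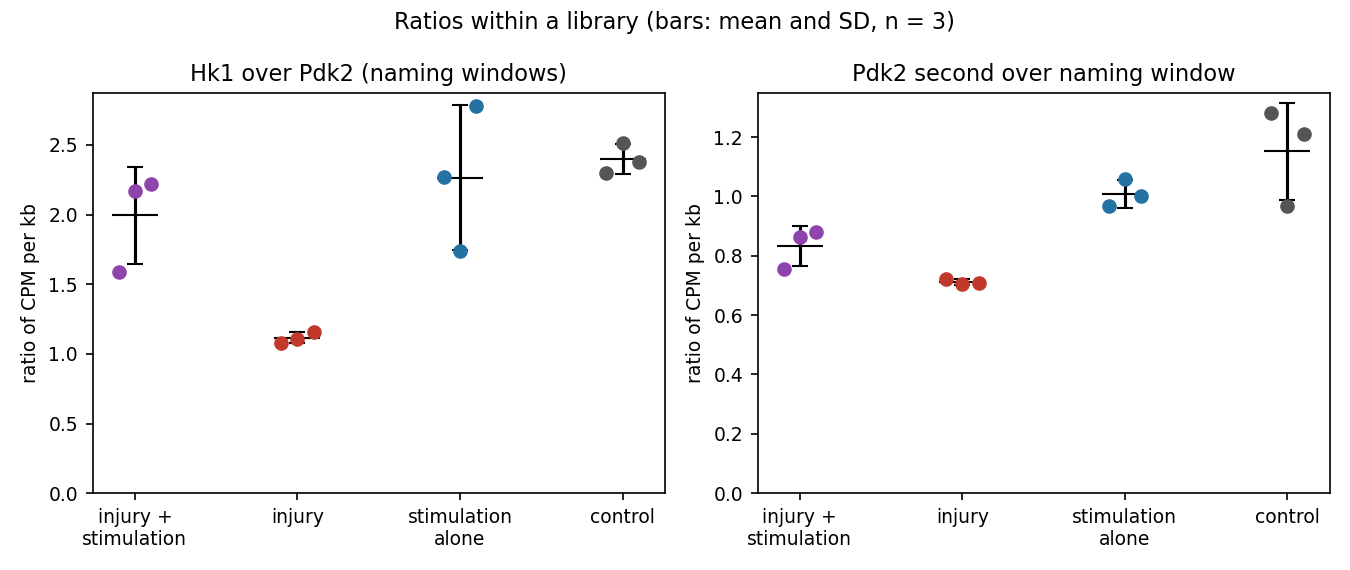
Ratios within each library, in CPM per kb over CPM per kb, for Hk1 over Pdk2 in their naming windows (left) and for the second over the naming window of Pdk2 (right), with mean and SD of 3 libraries per group. The 3 injury libraries are the lowest in both panels, between 1.08 and 1.16 on the left and between 0.705 and 0.723 on the right.

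Fold changes below come from an edgeR quasi-likelihood fit of all 12 libraries over the 13053 intervals that passed its filter on low counts, with standard errors (SE). An interval counts as called at a Benjamini-Hochberg adjusted p under 0.05. The 3 comparisons with control share the same 3 control libraries, and the remaining ones share treated libraries.

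Injury against control asks how the ganglion differs 2 weeks after the wound. Hk1 was 1.52-fold higher (log2 fold change 0.60 ± 0.14) and Pdk2 3.25-fold higher (1.70 ± 0.20) after injury than in controls. In the second windows the log2 fold changes were 0.62 for Hk1 and 1.01 for Pdk2. Both genes were called in both windows, in a comparison that called 31% of all intervals (19.3% higher and 11.7% lower), and nothing is read from this because the genes were chosen on these contrasts. The Pdk2 difference ranked at percentile 98.2 of all log2 fold changes and that of Hk1 at 77.4. With the trend of fold change on GC content removed, Hk1 was at 0.25 and no longer called, and Pdk2 was at 1.34.

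Stimulation alone against control asks how the ganglion differs after the current and its isoflurane, without a wound. Hk1 was 2.54-fold higher (log2 fold change 1.35 ± 0.14) and Pdk2 2.79-fold higher (1.48 ± 0.20) with stimulation alone than in controls. These are percentiles 97.8 and 98.6 of all log2 fold changes, and the second windows gave 1.54 for Hk1 and 1.30 for Pdk2. Both were called in both windows, where 29.8% of all intervals were called (18.2% higher and 11.7% lower). Removing the GC trend left Hk1 at 0.85 and Pdk2 at 1.01, both still called, and over all intervals left 1246 higher and 943 lower calls, against 2371 and 1525.

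Injury with stimulation against control gave smaller differences for Pdk2 than the other 2 treatments did. Hk1 was 1.66-fold higher (log2 fold change 0.74 ± 0.14) and Pdk2 2.06-fold higher (1.05 ± 0.19) after injury with stimulation than in controls. Both were called, among 17.2% of all intervals (12.3% higher and 4.93% lower), but the second window of Pdk2 (0.56 ± 0.20) was not and its groups overlap. Removing the GC trend left Hk1 at 0.45 and Pdk2 at 0.77, both called. With a replicate block added to that fit Hk1 was not called, while with the block alone it was (0.73). Without the outlying replicate 2 the values were 0.83 for Hk1 and 1.20 for Pdk2, and without replicate 3 they were 0.64 and 1.06 with neither called.

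Injury with stimulation against injury asks whether the wounded state differs with the current and its isoflurane. Hk1 differed little (log2 fold change 0.14 ± 0.14, 95% interval -0.14 to 0.41), and its groups overlap. Pdk2 was lower after injury with stimulation than after injury in both windows, by 0.65 ± 0.19 and 0.45 ± 0.20 on the log2 scale, with no overlap between the libraries. The share of all intervals without overlap here was not counted. Neither gene was called, in a comparison that called 1.54% of all intervals (0.0383% higher and 1.5% lower). Without replicate 2 of injury with stimulation the log2 fold change of Hk1 was 0.32 and that of Pdk2 -0.41, while without replicate 1 that of Pdk2 was -0.90 and called.

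Injury with stimulation against stimulation alone asks how stimulated ganglia differ with the wound and its drugs. Hk1 was lower after injury with stimulation than with stimulation alone, at a log2 fold change of -0.61 ± 0.14 in the naming window and -0.87 ± 0.15 in the second, with no overlap between the libraries. For Pdk2 the naming windows overlap (-0.43 ± 0.19) and the second windows do not (-0.74 ± 0.20). Again the share of all intervals without overlap was not counted. The naming window of Hk1 was called, among 4.07% of all intervals (2.21% higher and 1.85% lower), and so were both second windows. Removing the GC trend put the difference of Hk1 at -0.39, which was not called. Without replicate 2 of injury with stimulation it was -0.47 for Hk1 and -0.24 for Pdk2. The call of Hk1 was also lost without injury with stimulation replicate 3 or without any 1 of the stimulation-alone libraries.

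The interaction compares the difference with stimulation in wounded mice with that in unwounded mice. It was -1.21 ± 0.20 for Hk1 and -2.13 ± 0.27 for Pdk2 on the log2 scale, with second-window values of -1.49 and -1.75. For Hk1 stimulation went with 0.14 in wounded and 1.35 in unwounded mice, and for Pdk2 with -0.65 in wounded and 1.48 in unwounded mice, all as log2 fold changes. Both genes were called in both windows, where 19.2% of all intervals were called (6.86% higher and 12.3% lower). That is 896 higher and 1611 lower, against 399 and 375 with the GC trend removed. With that trend removed the interaction was -0.65 for Hk1 and -1.58 for Pdk2, and without replicate 2 of injury with stimulation it was -0.98 and -1.85.

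**Figure D4:**
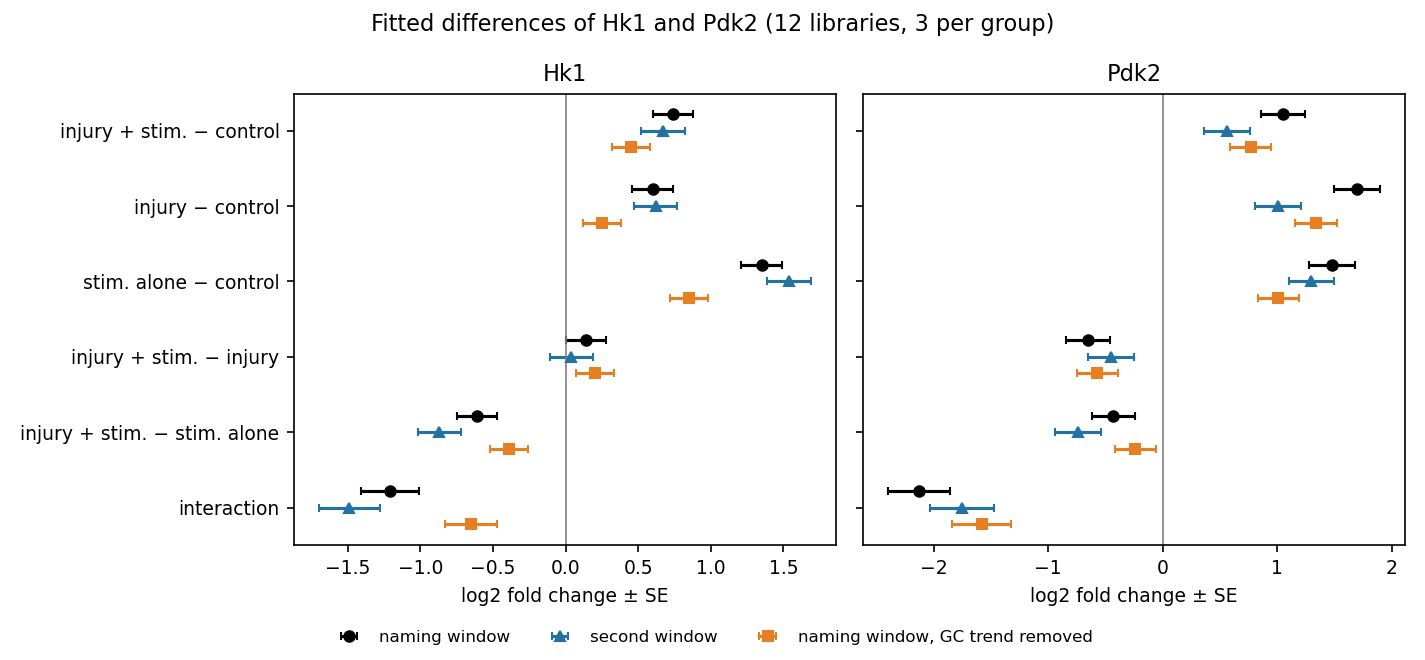
Log2 fold change ± SE of Hk1 and Pdk2 in the 6 comparisons, for the naming window (black), the second window (blue) and the naming window with the GC trend removed (orange), from fits of 12 libraries. Values to the right of 0 are higher in the group named first, and removing the GC trend moves most differences of both genes toward 0 without turning any of them.

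GC content moved with these comparisons. The exon bases of Hk1 under its naming window are 60.3% GC, percentile 89.8 of the intervals tested, and those of Pdk2 are 57.7% GC, percentile 82.9. Over 11721 intervals, the Spearman correlation of log2 fold change with GC was 0.29 for injury against control, 0.49 for stimulation alone against control and 0.33 for injury with stimulation against control. It was -0.034 for injury with stimulation against injury, -0.3 for injury with stimulation against stimulation alone and -0.43 for the interaction. These are correlations across intervals of the same libraries, which are not independent replicates.

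Markers of cell types also differed between the groups, and their part in the levels of Hk1 and Pdk2 was not tested. In bulk tissue, fewer cells of a type and less RNA per cell cannot be told apart. The 4 sensory neuron markers that could be measured of 12 listed (Nefm, Uchl1, Avil and Thy1) summed to 5530 to 10200 CPM after injury with stimulation, 6300 to 7820 after injury, 7490 to 9130 with stimulation alone and 4070 to 4660 in controls, so their controls were lowest, as they were for both genes. The 6 measured of 11 Schwann cell markers summed to 3410 to 6520 CPM after injury with stimulation, 6710 to 8510 after injury, 5000 to 5370 with stimulation alone and 3180 to 4160 in controls, highest after injury, as the naming window of Pdk2 was. The members of this sum were not alike. Cnp averaged 1820 CPM after injury and 931 with stimulation alone, but Prx 3410 and 3230, and Drp2 0.975 and 1.38. Against injury, injury with stimulation had lower Mag (-1.80), Cnp (-1.09), Fa2h (-1.05) and Mal (-0.92), as all 4 measured oligodendrocyte markers were. Prx (-0.31) and Drp2 (0.13) were not called there. The 4 measured of 8 oligodendrocyte markers summed to 146 to 333 CPM after injury with stimulation, 588 to 1070 after injury, 253 to 460 with stimulation alone and 195 to 321 in controls. The 7 measured of 10 fibroblast and meningeal markers summed to 8330 to 10100 CPM after injury with stimulation, 27400 to 27800 after injury, 4710 to 9210 with stimulation alone and 9220 to 10100 in controls. The injury libraries were above all others in both. Most of the fibroblast and meningeal sum was Ptgds, a prostaglandin synthase abundant in the meninges, at a mean of 22000 CPM after injury against 5230 CPM in controls. After injury 5 of the 7 rose against control (71.4%, against 31% of all intervals called). Dcn had a log2 fold change of 0.13 and Pdgfra of -0.23, neither called. For satellite glia (5 of 9) the sum was 373 to 451 CPM after injury with stimulation, 436 to 580 after injury, 372 to 493 with stimulation alone and 458 to 585 in controls. The members of this list moved in opposite directions. After injury Kcnj10 rose (1.64) while Cdh19 (-1.12), Ptprz1 (-0.48) and Ednrb (-0.39) fell (80% called, against 31% of all intervals). With stimulation alone 1 rose and 4 fell (100%, against 29.8%). Macrophage markers (6 of 10) summed to 96.1 to 114 CPM after injury with stimulation, 186 to 221 after injury, 73.9 to 98.4 with stimulation alone and 118 to 136 in controls, highest after injury. Endothelial markers (4 of 8) summed to 19.3 to 26.4 CPM after injury with stimulation, 27.4 to 37.1 after injury, 25.4 to 35.3 with stimulation alone and 16.8 to 19.1 in controls. No measured marker was at 0 in all libraries.

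Among the 5 other tested genes of the pyruvate dehydrogenase switch, 1 was called against control in each treated group (20%). Of all intervals 17.2% were called after injury with stimulation, 31% after injury and 29.8% with stimulation alone. Of its 12 listed genes besides Pdk2, 6 could be named and 5 tested. Those were Pdk1, Pdk3 and Pdk4, the sister kinases, Pdhb, a subunit of the complex, and the phosphatase gene Pdp1. By edgeR none of the sister kinases was called in any of the 6 comparisons, and neither was Pdhb. DESeq2 called Pdhb in injury with stimulation against stimulation alone (0.45), and so did edgeR without the outlying replicate 2 of injury with stimulation (0.55), which also called its interaction (0.58). Against control, Pdk3 had log2 fold changes of 0.13 ± 0.18 after injury with stimulation, 0.35 ± 0.18 after injury and -0.08 ± 0.18 with stimulation alone. The value after injury became 0.64 (adjusted p = 0.027, edgeR) with the GC trend removed. Pdk1, an isoform induced by low oxygen, and Pdk4, the isoform known to rise in fasting, ranged between -0.57 and 0.41 over the 6 comparisons.

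Pdp1 fell against control in all 3 treated groups. Its naming interval had 158, 176 and 168 CPM after injury with stimulation, 161, 147 and 185 CPM after injury, and 131, 131 and 131 CPM with stimulation alone, against 235, 214 and 266 CPM in controls. All 9 treated libraries were below the 3 controls, and the share of all intervals that separate in this way was not counted. The log2 fold change was -0.51 ± 0.13 after injury with stimulation (adjusted p = 0.015), -0.54 ± 0.13 after injury (adjusted p = 0.0069) and -0.87 ± 0.13 with stimulation alone (adjusted p = 0.00029, edgeR quasi-likelihood). The interaction was 0.89 ± 0.19 (adjusted p = 0.0057). With the GC trend removed the fall with stimulation alone was 0.45 on the log2 scale and still called, though not once replicate number was added to that fit as a block, while the calls were lost after injury with stimulation (-0.22), after injury (-0.27) and in the interaction (0.49). The call after injury with stimulation was also lost without replicate 1 or 3 of that group and without control replicate 1 or 3.

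Within the kinase family the share of Pdk2, read in its naming window, was larger in the treated groups. Of the summed level of the 4 Pdk genes in CPM per kb, Pdk2 made up 52.4% ± 7.79 after injury with stimulation, 62.2% ± 1.74 after injury, 61.5% ± 4.87 with stimulation alone and 34.5% ± 3.26 in controls (SD, n = 3 each). In controls the mean level of Pdk3 (109 ± 10.1 CPM per kb) was above that of Pdk2 (103 ± 10.4), and Pdk1 stood at 71.8 ± 3.5 and Pdk4 at 15.1 ± 2.33. The ratio of Pdk2, the kinase, to Pdp1, the phosphatase, per kb was 5.81 ± 1.98 after injury with stimulation, 9.29 ± 1.19 after injury, 9.94 ± 2.23 with stimulation alone and 1.98 ± 0.391 in controls. No treated library overlapped with a control in either measure. Both measures contain the naming window of Pdk2, which was chosen for how it differed between the groups, so they carry no test. In the second window of Pdk2, replicate 2 of injury with stimulation had 136 CPM per kb and control replicate 1 had 140. Levels per kb set windows of unlike length side by side. These are 475 exon bp for Pdk2, 102 for Pdk1 and 232 for Pdk3, against 3511 for Pdk4 and 4507 for Pdp1. How evenly each gene is covered was not tested, so levels of different genes are not like for like.

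For hexokinase, Hk1 could not be set beside its relatives. Hk2, the isoform prominent in muscle and fat, had at most 8 counts in a library in its interval and was not tested. Hk3, Hkdc1 and Adpgk had no interval that names them, and neither did the 3 listed channel genes of the outer mitochondrial membrane, to which hexokinase docks.

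Among the 111 other genes of glucose use in 10 lists, 45 could be named and 38 tested. After injury 10 of these 38 rose and 5 fell against control (39.5%, against 31% of all intervals), with a median log2 fold change of 0.38, against 0.03 over all intervals. With stimulation alone 10 rose and 4 fell (36.8%, against 29.8%), with a median of 0.03, the same as over all intervals. After injury with stimulation 8 rose and 4 fell against control (31.6%, against 17.2%), with a median of 0.15, against -0.02, but none was called without replicate 3 of that group and 16 were without the outlying replicate 2.

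These counts moved with single libraries. For injury against control, 8 were called without control replicate 2, 7 without injury replicate 2 and 9 without injury replicate 3. For stimulation alone against control, 8 were called without control replicate 3, 9 without stimulation-alone replicate 1 and 7 without its replicate 2. For injury with stimulation against control, 6 were called without replicate 1 of that group and 6 without control replicate 1.

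Glycolysis was the largest list, with 12 of the 38 tested genes. After injury 5 of the 12 rose and 2 fell (58.3%, against 31% of all intervals). Pgam1, which encodes phosphoglycerate mutase, had 223, 229 and 238 CPM after injury, against 140, 173 and 112 CPM in controls, and rose by 0.70 ± 0.18 on the log2 scale (adjusted p = 0.0078, edgeR). Gapdh, often used as a reference gene, rose by 0.82 ± 0.23 (adjusted p = 0.013), and Pfkm, a subunit of the enzyme that commits sugar to glycolysis, by 0.72 ± 0.17 (adjusted p = 0.0051). Pfkp, another subunit of that enzyme (0.62), and Tigar, which lowers glycolytic flux (0.51), also rose, and Pfkfb2 (-1.61) and Pfkfb3 (-0.98), whose products make an activator of glycolysis, fell. These last 4 were named after their values were seen. Pfkp (650 exon bp), Tigar (1350) and Pfkfb2 (563) were read through intervals with 0 coding bases, and whether these follow the coding mRNAs was not tested. With the GC trend removed Pfkm was at 0.37 and no longer called, and Gapdh lost its call without control replicate 1 or 2 or injury replicate 3.

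With stimulation alone 4 glycolysis genes rose and 1 fell (41.7%, against 29.8% of all intervals). Pgam1 had 287, 293 and 233 CPM, all above the 3 controls, and rose by 0.93 ± 0.18 (adjusted p = 0.0011, edgeR). Pfkm rose by 0.75 ± 0.17 (adjusted p = 0.0031) and Pfkl, the liver-type subunit of the same enzyme, by 1.04 ± 0.27 (adjusted p = 0.0071). The Pfkl interval has 17 coding bases among 740 exon bp and averaged 6.14 CPM. Tigar rose by 0.61 and Eno3, the muscle enolase, fell by 1.28, both named after their values were seen. Eno3 had 9.97, 8.82 and 10.3 CPM with stimulation alone and 20.6, 8.99 and 41.6 CPM in controls, so the groups overlap. The muscle markers Ckm and Atp2a1 summed to 2.1 to 49.7 CPM with stimulation alone and 4.21 to 591 in controls. Their part in Eno3 was not tested. With the GC trend removed Pgam1 (0.51), Pfkm (0.31) and Pfkl (0.56) were no longer called, and Pfkm was not called without stimulation-alone replicate 2. After injury with stimulation 6 of 12 rose against control and none fell (50%, against 17.2% of all intervals). Among them were Tigar (0.81 ± 0.17, adjusted p = 0.0059), Pgam1 (0.81 ± 0.18, adjusted p = 0.007) and Pfkl (1.04 ± 0.27, adjusted p = 0.014), and the other 3 were Pfkm, Pfkp and Gapdh, at 0.65, 0.74 and 0.71, named after their values were seen. With the GC trend removed Pfkl was at 0.76 and not called, and its call was also lost without control replicate 1. All 6 calls were lost without injury with stimulation replicate 3.

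**Figure D5:**
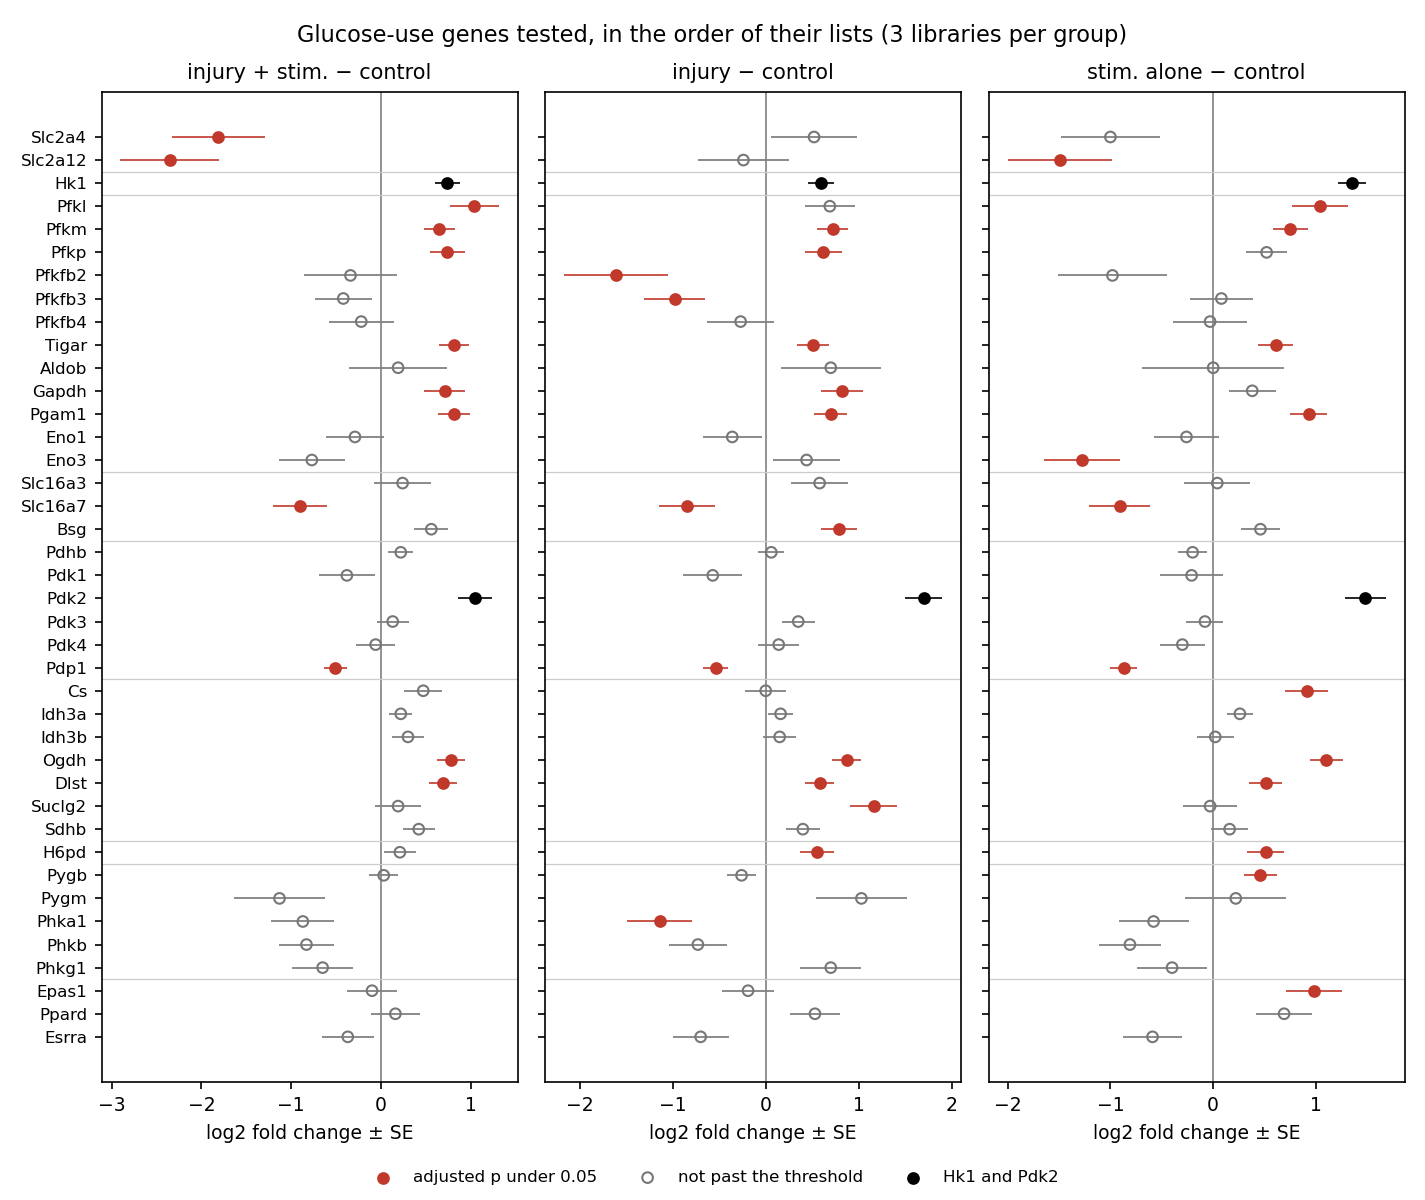
Log2 fold change ± SE against control of Hk1, Pdk2 and the 38 other glucose-use genes tested, ordered by list from transport at the top to regulators at the bottom, with filled red points where the edgeR adjusted p is under 0.05 and black points for Hk1 and Pdk2. Pdk2 lies at 1.05 after injury with stimulation, 1.70 after injury and 1.48 with stimulation alone, and none of the sister kinases Pdk1, Pdk3 and Pdk4 is filled red.

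Genes past the pyruvate gate rose in part. Of 7 citric acid cycle genes tested, 2 rose after injury with stimulation, 3 after injury and 3 with stimulation alone, and none fell. That is 28.6% of the list after injury with stimulation, against 17.2% of all intervals, 42.9% after injury, against 31%, and 42.9% with stimulation alone, against 29.8%. Ogdh, a subunit of the 2-oxoglutarate dehydrogenase complex, had 748, 501 and 736 CPM after injury with stimulation, 658, 732 and 722 CPM after injury, and 815, 836 and 826 CPM with stimulation alone, against 399, 419 and 336 CPM in controls. Its log2 fold change against control was 0.78 ± 0.16 after injury with stimulation (adjusted p = 0.0057), 0.87 ± 0.16 after injury (adjusted p = 0.0017) and 1.1 ± 0.16 with stimulation alone (adjusted p = 0.00022, edgeR), and all were still called with the GC trend removed. The call after injury with stimulation was lost without replicate 3 of that group, and when a replicate block was added to the GC correction. Like Hk1, Ogdh was above the controls in all 9 treated libraries and highest with stimulation alone, and the share of all intervals that did so was not counted. Dlst, another subunit of that complex, rose by 0.69 ± 0.16 after injury with stimulation (adjusted p = 0.0085), 0.58 ± 0.16 after injury (adjusted p = 0.012) and 0.51 ± 0.16 with stimulation alone (adjusted p = 0.021). The last of these was not called with the GC trend removed (0.41) or without any of 5 libraries, control replicates 1 and 2, stimulation-alone replicates 1 and 2 and injury with stimulation replicate 3, and the value after injury was not called without injury replicate 2 or injury with stimulation replicate 3. The call of Dlst after injury with stimulation was lost without replicate 3 of that group. Suclg2, a subunit of a succinyl-CoA ligase, rose after injury (1.16 ± 0.25, adjusted p = 0.0036), and Cs, citrate synthase, rose with stimulation alone (0.91 ± 0.21, adjusted p = 0.004). The intervals of Dlst (976 exon bp), Suclg2 (121) and Cs (1881) hold 0 coding bases, and Cs averaged 20.1 CPM. Whether their reads, counted without regard to strand, follow the coding mRNAs was not tested.

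Of the sugar carriers 2 were tested, Slc2a4 and Slc2a12, and of the lactate and pyruvate list 3. After injury with stimulation both sugar carriers fell against control (100%), and 1 of the 3 fell (33.3%), against 17.2% of all intervals. After injury neither sugar carrier was called, and in the other list 1 rose and 1 fell (66.7%, against 31%). With stimulation alone 1 fell in each list (50% and 33.3%, against 29.8%). Slc16a7, which encodes a monocarboxylate transporter, fell in all 3 treated groups, by 0.90 ± 0.30 after injury with stimulation (adjusted p = 0.046), 0.85 ± 0.30 after injury (adjusted p = 0.04) and 0.91 ± 0.30 with stimulation alone (adjusted p = 0.028), and none of these was called with the GC trend removed. Single libraries also ended these calls, in 10 of the 12 fits that left one out for injury with stimulation, in 6 for injury (each control and each injury library) and in 3 for stimulation alone (control replicates 2 and 3 and stimulation-alone replicate 2). With replicate number as a block the call after injury was lost as well (adjusted p = 0.054, edgeR). The Slc16a7 interval covers 2469 exon bp, of which 0 are coding. Bsg, which encodes a chaperone of some monocarboxylate transporters, rose after injury (0.79 ± 0.19, adjusted p = 0.0058), with 0.46 and no call once the GC trend was removed. Slc2a4, the insulin-sensitive glucose transporter of muscle and fat, had 1.27, 2.25 and 1.3 CPM after injury with stimulation, 6.43, 7.65 and 10.6 CPM after injury, 1.62, 4.19 and 2.71 CPM with stimulation alone, and 4.21, 2.28 and 10.7 CPM in controls. It fell by 2.33 ± 0.51 against injury (adjusted p = 0.026), the single call among the 38 genes in that comparison, and by 1.81 ± 0.52 against control (adjusted p = 0.024). The call against injury was lost without any 1 injury library or injury with stimulation replicate 3, and that against control without control replicate 3 or injury with stimulation replicate 1 or 3. The muscle markers Ckm and Atp2a1, 2 of 10 listed, summed to 0.507 to 59.2 CPM after injury with stimulation, 102 to 314 after injury, 2.1 to 49.7 with stimulation alone and 4.21 to 591 in controls, and their part in Slc2a4 was not tested. Slc2a12, a related transporter, fell by 2.35 ± 0.55 after injury with stimulation (adjusted p = 0.0094) and by 1.49 ± 0.51 with stimulation alone (adjusted p = 0.037), the first of which was lost without injury with stimulation replicate 3 and the second without any 1 control or stimulation-alone library. Slc2a1 and Slc2a3, the main glucose transporters of blood vessels and neurons, had at most 10 and 8 counts in a library and were not tested. Their intervals cover only 114 and 128 exon bp, of which 6 and 15 are coding, so these counts do not give the levels of the genes.

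Outside these groups the calls were single genes. H6pd, the pentose phosphate enzyme of the endoplasmic reticulum, rose after injury (0.55 ± 0.18, adjusted p = 0.029) and with stimulation alone (0.51 ± 0.18, adjusted p = 0.04), and with the GC trend removed it was at 0.19 and 0.04 and not called, and 8 and 7 of the 12 fits that left out a library ended these calls. In the glycogen list Phka1, a subunit of phosphorylase kinase, fell after injury (-1.14 ± 0.35, adjusted p = 0.022), and Pygb, the brain glycogen phosphorylase, rose with stimulation alone (0.46 ± 0.16, adjusted p = 0.034). Pygb turned to -0.02 with the GC trend removed (adjusted p = 0.96), and 7 of the 12 fits that left out a library ended its call. Phka1 was not called without control replicate 3 or injury replicate 1 or 2. Epas1, a transcription factor of the response to low oxygen, rose with stimulation alone against control (0.98 ± 0.27, adjusted p = 0.012) and was lower after injury with stimulation than with stimulation alone (-1.08 ± 0.27, adjusted p = 0.035), the single call there, which 7 of 12 fits that left out a library ended. Its rise with stimulation alone was not called without control replicate 3 or stimulation-alone replicate 3. The interaction called 1 gene upward, Pdp1, and 5 downward (15.8% of 38, against 19.2% of all intervals). Those were Pfkm, Pgam1, Ogdh, H6pd and Pygm. Leaving out control replicate 1, injury replicate 2 or stimulation-alone replicate 1 or 2 left 2 calls, and leaving out injury with stimulation replicate 3 left 3.

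The genes whose pattern was most like Hk1 were not those most like Pdk2. Over 12 libraries and 4222 named genes with a mean of at least 1 CPM, the highest Pearson correlations of log2(CPM + 0.5) with Hk1 were those of Ngfr (0.988), Mapk8ip2 (0.988), Eef1a2 (0.983), Nacad (0.978) and Tnk2 (0.97). Ngfr, a neurotrophin receptor, averaged 527 CPM after injury with stimulation, 455 after injury, 748 with stimulation alone and 307 in controls. For Pdk2 they were Zc3h7b (0.992), Hdac5 (0.984), Zfp768 (0.98), Pltp (0.978) and Map4 (0.975). Hdac5, a histone deacetylase, averaged 381 CPM after injury with stimulation, 468 after injury, 422 with stimulation alone and 224 in controls. Hk1 and Pdk2 correlated with each other at 0.735, which put Pdk2 at rank 482 for Hk1 and Hk1 at rank 714 for Pdk2. All these points share the same 12 libraries and 4 groups, so the correlations are a description.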

How the data were processed

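Libraries were poly(A) enriched, from RNA with an integrity number above 7, and sequenced as 150 bp paired reads, per the labels' protocols. The authors deposited whole-number counts for 56941 gene identifiers per library, made with featureCounts 2.0.6 on Ensembl 110 models for GRCm39, unstranded, with single reads counted and reads allowed in several genes, per the file headers. FastQC, DESeq2 and Salmon 1.10.2 are named in the submitters' processing notes, without a role. The aligner's version and the genome build of the alignment: not given in the sources used here.

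Because the counts follow GRCm38 exons, a GENCODE M21 gene named an interval that lay over at least 100 bp of its exons and over no exon of another gene. The interval with the most exon bases was the naming window. Counts were fitted with edgeR 4.0.16 (quasi-likelihood, robust, TMM, filterByExpr), all 12 libraries together with group as the only term, and p-values were adjusted by Benjamini-Hochberg over 13053 intervals. Deviations from group means correlated between same-numbered injury and control libraries at 0.13, 0.13 and 0.12, over the limit of 0.1 for treating numbers as pairs, and in no other pair of groups for all 3 numbers. The procedure was tested on simulated data. Alternatives were DESeq2 1.42.0, no filter, a replicate block, removal of the GC trend, both together, only the groups compared, each library left out, other naming limits, summed intervals and the second window, chosen after seeing the data.

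The members and lists were chosen with earlier results of these data known. Named genes were Hk1, Pdk2, every tested member of the hexokinase and pyruvate dehydrogenase lists, and up to 3 called members with the smallest p in each other list and comparison. Marker lists covered 9 cell types. The windows of Hk1 and Pdk2 held 172 to 2434 counts per library, which sets their counting precision.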

Additional observations from a re-analysis of the deposited data

Results flagged for a closer look

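For 8 glucose-use genes the difference with stimulation in wounded mice and that in unwounded mice were unlike each other by the interaction term of the fit. The 6 besides Hk1 and Pdk2 are 15.8% of the 38 tested, below the 19.2% of all intervals called. Hk1 (-1.21) and Pdk2 (-2.13) were chosen on such differences, so theirs carry no test, and they are given on the log2 scale. The others, with edgeR adjusted p-values over all intervals, were Pfkm (-0.82, adjusted p = 0.025), Pgam1 (-0.82, adjusted p = 0.031), Ogdh (-1.19, adjusted p = 0.0037), H6pd (-0.86, adjusted p = 0.028), Pygm (-2.38, adjusted p = 0.036) and Pdp1, which went the other way (0.89, adjusted p = 0.0057). Pygm, the muscle glycogen phosphorylase, had 13.1, 15.9 and 9.33 CPM after injury with stimulation, 63.2, 54.6 and 53.6 CPM after injury, 23.2, 58.2 and 17 CPM with stimulation alone and 19.8, 13.5 and 50.8 CPM in controls. It was no longer called in 9 of 12 fits that left out a library, and the summed muscle markers Ckm and Atp2a1 ranged over 0.507 to 59.2 CPM after injury with stimulation, 102 to 314 after injury, 2.1 to 49.7 with stimulation alone and 4.21 to 591 in controls, and their part in Pygm was not tested. Ogdh remained called in all 12 such fits and Pdp1 too, while Pfkm lost its call in 7, Pgam1 in 8 and H6pd in 8. With the GC trend removed Pfkm (-0.29), Pgam1 (-0.41), H6pd (-0.29), Pygm (-1.79) and Pdp1 (0.49) were not called, and Ogdh was at -0.76 (adjusted p = 0.05, edgeR).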

How the results depend on the processing

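No fit turned the direction of Hk1 or Pdk2 in any comparison. The one called value of a named gene that turned was Pygb with stimulation alone against control, at -0.02 with the GC trend removed, with or without the replicate block. Values that were not called also changed sign there, those of Pdk3 (0.37) and Pdhb (0.01) with stimulation alone and of Pdk4 after injury with stimulation (0.14) and in the interaction (-0.10). Removing the GC trend gave, in the order Hk1 then Pdk2, 0.25 and 1.34 for injury against control, 0.85 and 1.01 for stimulation alone against control, 0.45 and 0.77 for injury with stimulation against control, and -0.65 and -1.58 for the interaction, with Hk1 at -0.39 for injury with stimulation against stimulation alone. With the replicate block as well, Hk1 was at 0.25, 0.85, 0.45, -0.65 and -0.40 and Pdk2 at 1.35, 1.01, 0.77 and -1.59 in the same comparisons, and Hk1 was then called only in stimulation alone against control (0.85). The second window gave 1.01 for Pdk2 in injury against control, 1.54 for Hk1 in stimulation alone against control, 0.56 for Pdk2 in injury with stimulation against control, -0.87 and -0.74 in injury with stimulation against stimulation alone, and -1.49 and -1.75 in the interaction. Summed intervals were possible for Hk1, with no call changed, and not for Pdk2, which has no other interval of its own. Leaving out single libraries gave Hk1 0.51 to 0.68 and Pdk2 1.61 to 1.74 for injury against control, 1.27 to 1.43 and 1.25 to 1.61 for stimulation alone against control, 0.64 to 0.83 and 0.81 to 1.20 for injury with stimulation against control, 0.08 to 0.32 and -0.90 to -0.41 for injury with stimulation against injury, -0.68 to -0.47 and -0.68 to -0.22 for injury with stimulation against stimulation alone, and -1.30 to -0.98 and -2.39 to -1.84 for the interaction. The number of the 38 listed genes called ranged from 7 to 18 (injury against control), 7 to 18 (stimulation alone against control), 0 to 16 (injury with stimulation against control), 0 to 4 (against injury), 0 to 4 (against stimulation alone) and 2 to 7 (interaction). Same-numbered replicates did not pair outside injury and control, with correlations of -0.52 to 0.49 over all groups and 6 of 18 over 0.1, and the replicate block left 3 calls in the interaction and 0 in injury with stimulation against stimulation alone. It ended the call of Hk1 in that comparison, at -0.61, as did a fit of only the groups compared, at -0.57. With no filter Pdk2 was called in injury with stimulation against injury, at -0.64. Against injury, injury with stimulation had 5 calls with DESeq2, 3 with no filter, 4 in a fit of only the groups compared and 0 with the block and the GC trend removed. Against stimulation alone it had 3 with DESeq2 and 0 with only the groups compared, with naming from 300 bp and with the block and GC trend removed. Against control it had 4 with only the groups compared and 5 with the block and GC trend removed. Stimulation alone against control had 9 with the GC trend removed, 6 with the block as well and 9 with naming from 300 bp, the interaction 2 and 0, and injury against control 9 with both. Over all intervals, higher and lower calls in injury with stimulation against stimulation alone were 289 and 242, against 265 and 519 with no filter, 172 and 103 with the GC trend removed and 165 and 129 with the block. Without the filter they were 54 and 310, against 5 and 196, in injury with stimulation against injury. With the GC trend removed they were 1112 and 355, against 1604 and 643, in injury with stimulation against control. The cause was not tested.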

Other observations

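The 2 measured of 6 red blood cell markers, Alas2 and Slc4a1, summed to 41.2 to 87.8 CPM after injury with stimulation, 67.8 to 82.4 CPM after injury, 11.6 to 29.7 CPM with stimulation alone and 22 to 40.6 CPM in controls. Hk1 correlated with their sum at a Pearson r of -0.291 and Pdk2 at 0.294 over 12 libraries that share their groups. With the sums of the other lists, Hk1 and Pdk2 correlated at 0.84 and 0.814 for sensory neurons, 0.444 and 0.857 for Schwann cells, 0.656 and 0.893 for endothelium, -0.6 and -0.176 for satellite glia, 0.0842 and 0.576 for oligodendrocytes, -0.34 and 0.365 for fibroblasts and meninges, -0.471 and 0.212 for macrophages and -0.395 and -0.122 for skeletal muscle. These are descriptions over the same 12 libraries, and the points share the groups.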
